A study of Homo sapiens with 6 samples.

Results

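Red cell membrane and blood group genes were examined as a set of 34 genes. They were grouped by function and chosen with earlier results of these data known. The groups were glycophorins, proteins of the membrane skeleton, band 3 with the Rh and Kell-XK proteins, and channels and transporters. The others were adhesion and receptor antigens, complement regulators, and the erythropoietin receptor. The count files listed 60671 genes, and all 34 were among them. At least 1 read was counted on 33 of the 34, and 30 passed the expression filter and were tested, of 12364 genes tested in all. The libraries came from K562 cells, a human erythroleukemia line derived from chronic myeloid leukemia, here a single clone carrying a doxycycline-inducible Flag-NLS-M.CviPI-Lamin-B1 fusion. Of 6 cultures, 3 received 0.1% DMSO as vehicle and 3 received 1 µM GSK343, an inhibitor of the histone methyltransferase EZH2 (EZH2i), each for 72 h. Both groups received 1 µg/mL doxycycline over the final 24 h, so all 6 libraries come from cells with the induced fusion, and a single clone cannot show how other K562 cells respond. The comparison asks which of these genes change in transcript level when EZH2, the enzyme that deposits the repressive mark H3K27me3, is inhibited.

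The red cell membrane is a lipid bilayer tied to a flexible skeleton of spectrin tetramers, whose ends meet at junctions of short actin filaments. Ankyrin joins spectrin to band 3, and protein 4.1 joins the junctions to glycophorin C, so the membrane withstands shear in the circulation. Many blood group antigens are carried by these same proteins, and others sit on adhesion molecules, receptors, transporters and complement regulators of the surface. K562 cells express part of this program without maturing into red cells.

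Reads counted on genes ranged from 6327544 to 8987768 per library in DMSO and from 6926167 to 7913358 in EZH2i. Reads on the 34 genes made up from 0.311% to 0.327% of these in DMSO and from 0.315% to 0.342% in EZH2i. EZH2i replicate 1 stood apart from the other libraries in its deviation from the mean of the others in its group. Its median absolute log2 deviation over all tested genes was 0.207, against 0.150 to 0.164 in the other 5. Over the 30 tested genes of the set alone its deviation was 0.159, within the range of 0.0993 to 0.165 of the others. It was the lowest of its group in 16 of the 30, against 37.8% of all tested genes. EZH2i replicate 3 stood apart in its reads, with 12.7% on no annotated feature, against 7.43% to 8.51% in the other 5 libraries, and 63.6% on genes, against 67.0% to 67.9%. Without either library, 3 genes of the set were called in place of 4. Of 10 K562 erythroid marker genes, 9 passed the filter. The exception was *HBE1*, embryonic epsilon globin, with 1 to 6 reads per library. Sequence shared between globin genes was not examined. Reads that align to more than 1 place are not in the gene counts, so those of *HBE1*, *HBG1* and *HBG2* may be incomplete. Values in the text are CPM, counts scaled to a common library size with the TMM factor, and a log2 fold change is the EZH2i level over the DMSO level. Reads lie near the 3′ ends of transcripts, and no order of levels between genes is drawn.

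In edgeR's quasi-likelihood fit, with p-values adjusted over all tested genes by the Benjamini-Hochberg method and a threshold of 0.05, 4 of the 30 tested genes changed, and all 4 rose: *CD44*, *BCAM*, *TMOD1* and *KEL*. They are 13.3% of the tested set, against 4.26% of all tested genes called in either direction and 3.34% called higher. No gene of the set was called lower by edgeR or by DESeq2, with 1 lower at an unadjusted p under 0.05, *GYPC*, against 8.21% of all tested genes. Among all tested genes 0.922% were called lower. An unadjusted p under 0.05 was reached by 9 of the 30, against 19.1% of all tested genes, and 8 of the 30, or 26.7%, were higher at that level, against 10.9% of all tested genes. The EZH2i and DMSO libraries did not overlap in 11 of the 30, or 36.7% against 24.5% of all tested genes. Of these, 10 were higher in EZH2i, or 33.3% against 13.3%, and 1 was lower. The log2 fold change was above 0 for 15 of the 30 and for 6178 of the 12364 genes tested in all, and its median was 0.02, against -0.00021 over all tested genes. These counts describe the set and are not a test of it, since its genes were chosen with earlier results of these data known. In addition, *BCAM* passed the filter through its EZH2i libraries alone, at or above 1.32 CPM in 3 of 3 there and in 0 of 3 in DMSO. *CD44* was at or above that level in 2 of 3 DMSO libraries. In bulk RNA, a change in the share of cells expressing a gene and a change in its RNA per cell cannot be told apart.

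**Figure D1:**
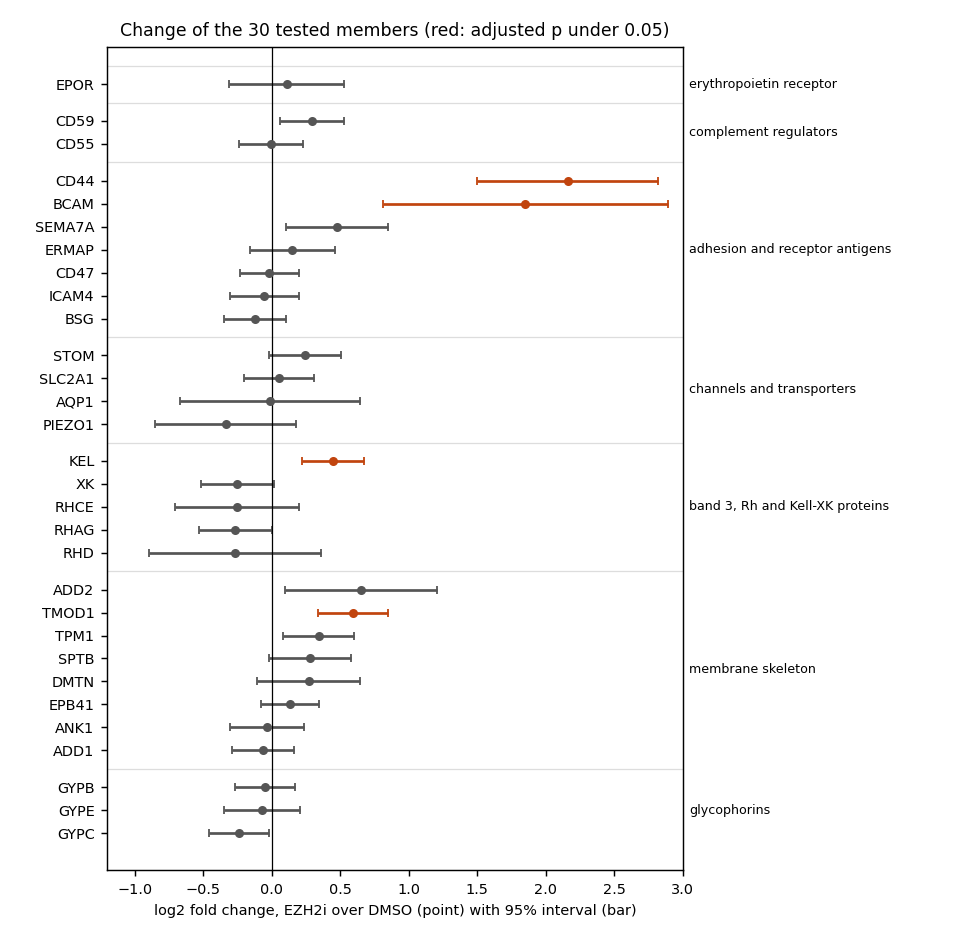
Log2 fold change of EZH2i over DMSO for the 30 tested genes (x axis), grouped by role, with the edgeR 95% interval as a bar; red marks an adjusted p under 0.05. The red points are *CD44* at 2.16, *BCAM* at 1.85, *TMOD1* at 0.59 and *KEL* at 0.45, and the points of most other genes lie close to 0.

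Promoter sequence is shown for the 3 of the 4 genes that rose whose windows lie outside annotated untranslated regions of these genes. The windows are the 250 bases before the RefSeq gene start on GRCh38.p14, read in the direction of the gene, at chr9:97500930-97501179 on the plus strand for *TMOD1*, chr7:142962364-142962613 on the minus strand for *KEL*, and chr19:44808809-44809058 on the plus strand for *BCAM*. Capitals mark matches on either strand to AGATAA or TGATAA and to AGATAG or TGATAG, forms of the motif that GATA factors bind, and to CACCC, a motif of KLF factors, which reads GGGTG on the other strand.
TMOD1: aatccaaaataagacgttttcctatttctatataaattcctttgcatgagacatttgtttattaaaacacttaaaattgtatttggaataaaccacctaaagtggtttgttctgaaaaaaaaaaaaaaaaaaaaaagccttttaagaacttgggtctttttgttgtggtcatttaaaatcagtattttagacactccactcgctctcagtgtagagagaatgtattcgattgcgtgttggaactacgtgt
KEL: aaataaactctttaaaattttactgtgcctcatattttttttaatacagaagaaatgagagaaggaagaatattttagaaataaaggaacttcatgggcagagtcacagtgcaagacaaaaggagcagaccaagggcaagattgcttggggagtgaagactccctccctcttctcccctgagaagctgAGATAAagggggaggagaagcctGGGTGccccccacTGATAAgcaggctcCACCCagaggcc
BCAM: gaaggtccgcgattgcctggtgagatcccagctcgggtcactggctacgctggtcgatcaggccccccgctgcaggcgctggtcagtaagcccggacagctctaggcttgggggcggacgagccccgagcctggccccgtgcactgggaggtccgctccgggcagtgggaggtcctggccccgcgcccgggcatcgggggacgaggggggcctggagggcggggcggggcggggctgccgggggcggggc
The *TMOD1* window was 30.4% GC with 5 CpG dinucleotides and the *KEL* window 45.2% GC with 0, whereas the *BCAM* window was 76.0% GC with 24. The *KEL* window held 2 GATA matches and 2 CACCC matches, which do not overlap each other, and the windows of *TMOD1* and *BCAM* held none of either. The *CD44* window, which lies in annotated transcript and is not printed, was 62.4% GC with 15 CpG dinucleotides and held 2 CACCC matches and 0 GATA matches. RefSeq promoters were matched for 29 of the 34 genes. A GATA match was present in 10 of the 29, or 34.5%, against 22.9% of all 27305 promoters, a CACCC match in 20, or 69.0%, against 53.7%, and both in 7, or 24.1%, against 9.68%. Neither motif was present in the windows of all 4 genes that rose. A match describes letters only, and no binding was measured at these windows.

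Adhesion and receptor antigens held the 2 largest fold changes among the 30 tested genes. *CD44*, the hyaluronan receptor that carries the Indian blood group (chromosome 11, 35138882 to 35232402, plus strand, GRCh38), stood at 0.780, 1.78 and 2.15 CPM in DMSO replicates 1, 2 and 3 and at 7.02, 7.67 and 7.28 CPM in EZH2i replicates 1, 2 and 3. Every EZH2i library lay above every DMSO library, and the EZH2i libraries were close to each other. The reads behind these levels were 5, 15 and 19 in DMSO and 52, 61 and 51 in EZH2i. The mean rose from 1.57 ± 0.708 to 7.32 ± 0.327 CPM (SD, n = 3 each), and the log2 fold change was 2.16 (SE 0.313, 95% interval 1.5 to 2.82, adjusted p = 0.000899, edgeR), or 4.47-fold. The call held in 6 of 6 fits that each left out 1 library. The opposite-strand genes *CD44-DT* and *CD44-AS1* had 0 reads in every library, which allows up to 3 reads in each.

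*BCAM*, the laminin-binding Lutheran glycoprotein (chromosome 19, 44809071 to 44821421, plus strand), was at 1.09, 0.710 and 0.679 CPM in DMSO and at 5.13, 1.76 and 2.0 CPM in EZH2i. The groups did not overlap, but EZH2i replicate 1 was far above the other EZH2i libraries. These levels rest on 7, 6 and 6 reads in DMSO and 38, 14 and 14 in EZH2i. The mean rose from 0.827 ± 0.230 to 2.96 ± 1.88 CPM (SD, n = 3 each), and the log2 fold change was 1.85 (SE 0.493, 95% interval 0.81 to 2.89, adjusted p = 0.0414, edgeR). Without EZH2i replicate 1 the log2 fold change was 1.20 with an adjusted p of 0.213 (edgeR). The call was also lost without DMSO replicate 1, 2 or 3, at adjusted p of 0.0987, 0.157 and 0.137 (edgeR), and with DESeq2, at 0.0868.

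None of the other 5 tested adhesion and receptor antigens passed the threshold. *SEMA7A*, the GPI-anchored semaphorin of the John Milton Hagen blood group, was at 17.5, 15.04 and 10.6 CPM in DMSO and at 19.4, 19.4 and 20.8 CPM in EZH2i. Its groups did not overlap, with a wide spread in DMSO, and its log2 fold change was 0.48 (SE 0.176, 95% interval 0.11 to 0.85, adjusted p = 0.137, edgeR), or 0.30 without DMSO replicate 3 (adjusted p = 0.388, edgeR). *CD47*, the signal by which a red cell restrains phagocytosis, measured 83.3 ± 2.79 CPM in DMSO and 82.4 ± 4.79 CPM in EZH2i (SD, n = 3 each), and the interval of its log2 fold change ran from -0.23 to 0.20. *BSG*, the carrier of the Ok antigen and receptor of a malaria parasite ligand, measured 227 ± 26.3 and 208 ± 5.99 CPM. *ICAM4*, which carries the Landsteiner-Wiener antigens and binds integrins, measured 42.9 ± 4.46 and 41.2 ± 0.163 CPM, and *ERMAP*, of the Scianna blood group, 18.2 ± 1.46 and 20.1 ± 1.53 CPM. The log2 fold changes of *BSG*, *ICAM4* and *ERMAP* were -0.12, -0.05 and 0.15. That of *BSG* ran from -0.21 to -0.05 over the fits that left out DMSO replicate 3 or 2, and that of *ERMAP* fell to 0.09 when EZH2i replicate 1 was left out. *ACKR1*, the chemokine receptor of the Duffy blood group, had 0 reads in all 6 libraries, which allows up to 3 reads in each.

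**Figure D2:**
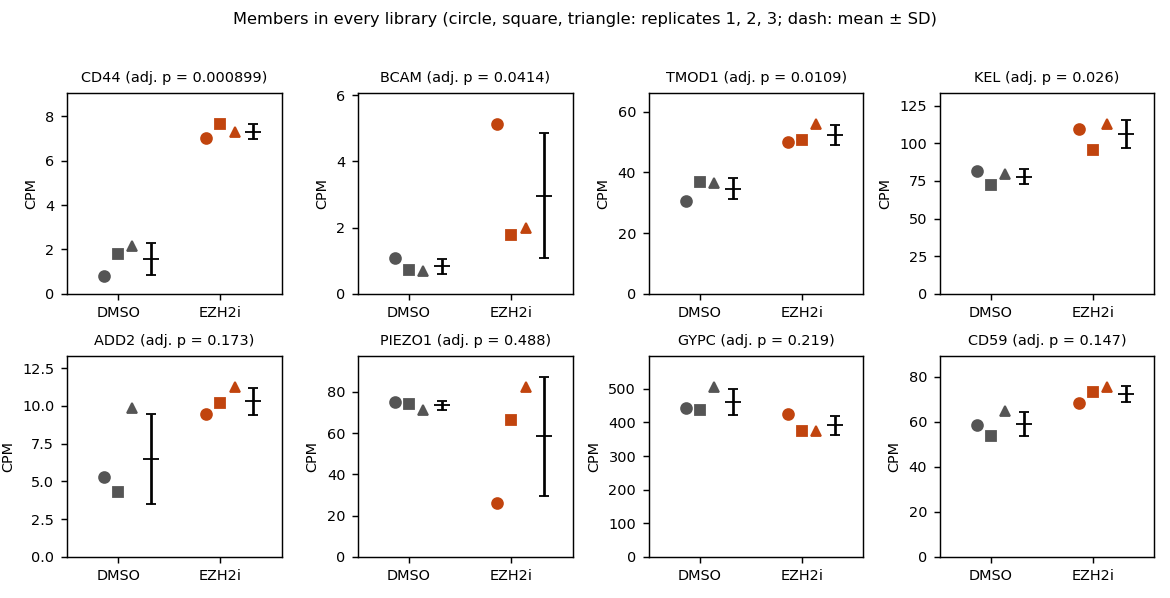
CPM in each library (y axis, from 0) for 8 genes, with circles, squares and triangles for replicates 1, 2 and 3 and dashes with bars for the mean ± SD of 3 libraries. *CD44*, *TMOD1* and *KEL* have all EZH2i libraries above all DMSO libraries, with a wide relative spread of *CD44* in DMSO (0.780 to 2.15 CPM), *BCAM* separates them with EZH2i replicate 1 at 5.13 CPM above the others, and *PIEZO1* has EZH2i replicate 1 at 26.3 CPM below the others.

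In the membrane skeleton, *TMOD1* was the gene that rose, of 8 tested. *TMOD1* encodes tropomodulin 1, which caps the pointed ends of the junctional actin filaments (chromosome 9, 97501180 to 97601743, plus strand). It was at 30.6, 36.7 and 36.4 CPM in DMSO and at 50.1, 50.7 and 55.9 CPM in EZH2i. All EZH2i libraries lay above all DMSO libraries. Its mean rose from 34.6 ± 3.47 to 52.2 ± 3.23 CPM (SD, n = 3 each), and the log2 fold change was 0.59 (SE 0.121, 95% interval 0.34 to 0.85, adjusted p = 0.0109, edgeR), or 1.51-fold. Without DMSO replicate 1, the lowest library, the log2 fold change was 0.51 and the adjusted p was 0.0728 (edgeR). On the opposite strand *TSTD2*, whose exons overlap those of *TMOD1*, changed by -0.29 on the log2 scale (adjusted p = 0.355, edgeR).

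The partners of tropomodulin at the junction did not pass the threshold. *TPM1*, a tropomyosin that lies along the same filaments, was at 36.5, 30.6 and 34.6 CPM in DMSO and at 44.95, 43.4 and 40.4 CPM in EZH2i. The groups did not overlap, and the log2 fold change of *TPM1* was 0.34 (SE 0.122, 95% interval 0.09 to 0.60, adjusted p = 0.123, edgeR). *ADD2*, the beta subunit of adducin, which caps the other end of the filaments, was at 5.30, 4.26 and 9.85 CPM in DMSO and at 9.45, 10.2 and 11.3 CPM in EZH2i. DMSO replicate 3 lay among the EZH2i libraries, and the log2 fold change of 0.65 (SE 0.262, 95% interval 0.10 to 1.21) had an adjusted p of 0.173 (edgeR). Without DMSO replicate 3 it was 1.12 with an adjusted p of 0.0317, and without DMSO replicate 2 it was 0.41 with an adjusted p of 0.494 (edgeR). *ADD1*, the alpha subunit of adducin, measured 107 ± 10.5 CPM in DMSO and 102 ± 6.04 CPM in EZH2i, with a log2 fold change of -0.06.

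Genes of the spectrin lattice and its anchors did not pass the threshold. *SPTB*, erythroid beta spectrin, was at 18.9, 16.9 and 20.5 CPM in DMSO and at 22.4, 22.1 and 24.0 CPM in EZH2i, groups that did not overlap, with a log2 fold change of 0.28 (95% interval -0.02 to 0.58, adjusted p = 0.288, edgeR). *DMTN*, dematin, an actin-bundling protein of the junction, was at 9.98, 11.6 and 9.96 CPM in DMSO and at 14.6, 11.7 and 11.9 CPM in EZH2i. These groups were separated by a narrow gap between DMSO replicate 2 and EZH2i replicate 2, and the log2 fold change of *DMTN* was 0.27 (95% interval -0.11 to 0.65, adjusted p = 0.433, edgeR), and 0.16 without EZH2i replicate 1 (adjusted p = 0.717, edgeR). *EPB41*, protein 4.1, measured 555 ± 39.0 and 607 ± 36.2 CPM, a log2 fold change of 0.13, or 0.08 when either DMSO replicate 2 or EZH2i replicate 1 was left out. *ANK1*, erythroid ankyrin, measured 201 ± 12.6 and 196 ± 40.0 CPM, with EZH2i replicate 1 at 157 CPM and replicate 3 at 237 CPM on either side of all DMSO libraries. *EPB42*, protein 4.2, which binds band 3 and ankyrin, had 6 reads over the 6 libraries, with 0 to 2 per library, and was not tested.

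Among band 3, Rh and Kell-XK proteins, *KEL* rose while the other 4 tested genes had log2 fold changes below 0 that did not pass the threshold. *KEL* encodes the Kell glycoprotein, a zinc endopeptidase that cleaves endothelins (chromosome 7, 142941114 to 142962363, minus strand). It was at 81.4, 72.1 and 79.7 CPM in DMSO and at 110, 95.5 and 113 CPM in EZH2i. All EZH2i libraries lay above all DMSO libraries. The mean rose from 77.7 ± 4.95 to 106 ± 9.22 CPM (SD, n = 3 each), and the log2 fold change was 0.45 (SE 0.108, 95% interval 0.22 to 0.68, adjusted p = 0.0260, edgeR), or 1.36-fold. The adjusted p was 0.0745, 0.126 and 0.0752 without DMSO replicates 1, 2 and 3 and 0.0840 without EZH2i replicate 3 (edgeR), and DESeq2 on all libraries kept the call.

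*XK*, the lipid scramblase that is linked to Kell by a disulfide bond in the membrane, was at 62.7, 55.5 and 64.1 CPM in DMSO and at 42.7, 54.1 and 56.5 CPM in EZH2i. The lowest library was EZH2i replicate 1, the groups overlapped, and the log2 fold change of *XK* was -0.25 (95% interval -0.51 to 0.01, adjusted p = 0.287, edgeR). *RHAG*, the Rh-associated glycoprotein needed for Rh antigens to reach the surface, was at 223, 210 and 189 CPM in DMSO and at 138, 181 and 198 CPM in EZH2i. The groups overlapped, with EZH2i replicate 1 again lowest, and its log2 fold change was -0.26 (95% interval -0.53 to 0.00063, adjusted p = 0.262, edgeR). Without EZH2i replicate 1 the log2 fold changes of *XK* and *RHAG* were -0.13 and -0.12. *RHCE* and *RHD*, neighbours on chromosome 1 separated by 31.8 kb, had log2 fold changes of -0.25 (adjusted p = 0.573) and -0.27 (adjusted p = 0.680) in edgeR's test. *RHCE* measured 8.69 ± 1.49 CPM in DMSO and 7.32 ± 0.968 CPM in EZH2i, and *RHD* 3.73 ± 0.803 and 3.12 ± 0.410 CPM. The log2 fold change of *RHCE* was -0.10 without DMSO replicate 2, and that of *RHD* became -0.07 when DMSO replicate 3 was left out and -0.17 when EZH2i replicate 1 was. In the last 300 bases of their annotated transcripts 21.7% of the 50-base runs of *RHCE* also occur in *RHD*, so their separate counts are uncertain. Exons of *TMEM50A*, *RSRP1*, *CTU2* and *SVBP*, all tested, overlap those of *RHCE*, *RHD*, *PIEZO1* and *ERMAP* on the opposite strand, and the strand setting of the counting is not given in the sources used here. *SLC4A1*, band 3, the anion exchanger of the red cell, had 18 reads over the 6 libraries, with 1 to 5 per library, and was not tested.

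Glycophorins did not pass the threshold, although 1 of the 3 genes had groups that did not overlap. *GYPC*, glycophorin C, the partner of protein 4.1 and carrier of the Gerbich antigens, was at 442, 438 and 506 CPM in DMSO and at 425, 375 and 375 CPM in EZH2i. All EZH2i libraries lay below all DMSO libraries, with EZH2i replicate 1 close to DMSO replicate 2. Its mean was 462 ± 38.4 CPM in DMSO and 392 ± 28.7 CPM in EZH2i (SD, n = 3 each), with -0.24 on the log2 scale (SE 0.103, 95% interval -0.45 to -0.02, adjusted p = 0.219, edgeR). *GYPC* was the single gene of the set with non-overlapping groups and a lower level in EZH2i, 3.33% of the tested set against 11.2% of all tested genes. *GYPB*, the carrier of the S and s antigens, measured 678 ± 48.6 and 656 ± 54.7 CPM, with a 95% interval of the log2 fold change from -0.27 to 0.17, and *GYPE*, its close relative 90.5 kb away, measured 43.3 ± 1.82 and 41.3 ± 6.57 CPM, with an interval from -0.35 to 0.20. In the last 300 bases 3.97% of the 50-base runs of *GYPB* occur in *GYPE*. Reads that align to more than 1 place formed a class of their own in the count files, 21.4% to 22.3% of listed reads, and are not in the gene counts.

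Channels and transporters did not pass the threshold. *STOM*, stomatin, a lipid raft protein that regulates channels and glucose transport, had the smallest p of the 4 tested, at 29.3, 29.5 and 33.5 CPM in DMSO and 39.2, 33.7 and 36.5 CPM in EZH2i. Its groups did not overlap by a narrow gap between DMSO replicate 3 and EZH2i replicate 2, and the log2 fold change was 0.24 (SE 0.126, 95% interval -0.02 to 0.51, adjusted p = 0.303, edgeR). *PIEZO1*, the mechanically gated cation channel, was at 75.3, 74.4 and 71.2 CPM in DMSO and at 26.3, 66.4 and 82.5 CPM in EZH2i. The DMSO libraries were tightly grouped, whereas EZH2i replicate 1 lay far below and EZH2i replicate 3 above all of them. The log2 fold change of *PIEZO1* was -0.33 (SE 0.245, 95% interval -0.85 to 0.18, adjusted p = 0.488, edgeR), and without EZH2i replicate 1 it was 0.018 (adjusted p = 0.961, edgeR), so its sign rests on that library. *SLC2A1*, the glucose transporter GLUT1, measured 110 ± 5.40 and 114 ± 19.1 CPM, and *AQP1*, the water channel of the Colton blood group, 4.20 ± 1.35 and 4.26 ± 1.28 CPM. *SLC14A1*, the urea transporter of the Kidd blood group, had 7 reads over the 6 libraries, with 0 to 3 per library, and was not tested.

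Both complement regulators are GPI-anchored proteins that shield the red cell from lysis. *CD59*, which blocks assembly of the membrane attack complex, was at 58.7, 53.9 and 64.7 CPM in DMSO and at 68.4, 73.4 and 75.5 CPM in EZH2i. The groups did not overlap, and the mean was 59.1 ± 5.45 CPM in DMSO and 72.5 ± 3.63 CPM in EZH2i (SD, n = 3 each), with 0.29 on the log2 scale (SE 0.111, 95% interval 0.06 to 0.53, adjusted p = 0.147, edgeR). Of the 50-base runs in the last 300 bases of *CD59* transcripts, 32.1% are shared with an overlapping same-strand gene model that had 0 reads in every library. Reads that fit both models may be missing from the counts of *CD59*. *CD55*, which speeds decay of complement convertases and carries the Cromer antigens, was at 66.8, 73.9 and 64.9 CPM in DMSO and at 73.8, 61.7 and 69.5 CPM in EZH2i. The groups of *CD55* overlapped throughout, and the 95% interval of its log2 fold change ran from -0.24 to 0.23. *EPOR*, the erythropoietin receptor, was at 8.27, 13.0 and 10.9 CPM in DMSO and at 12.6, 9.93 and 12.6 CPM in EZH2i. Its groups overlapped, with a mean of 10.7 ± 2.38 and 11.7 ± 1.52 CPM (SD, n = 3 each) and 0.11 on the log2 scale (SE 0.199, 95% interval -0.31 to 0.53, adjusted p = 0.818, edgeR).

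**Figure D3:**
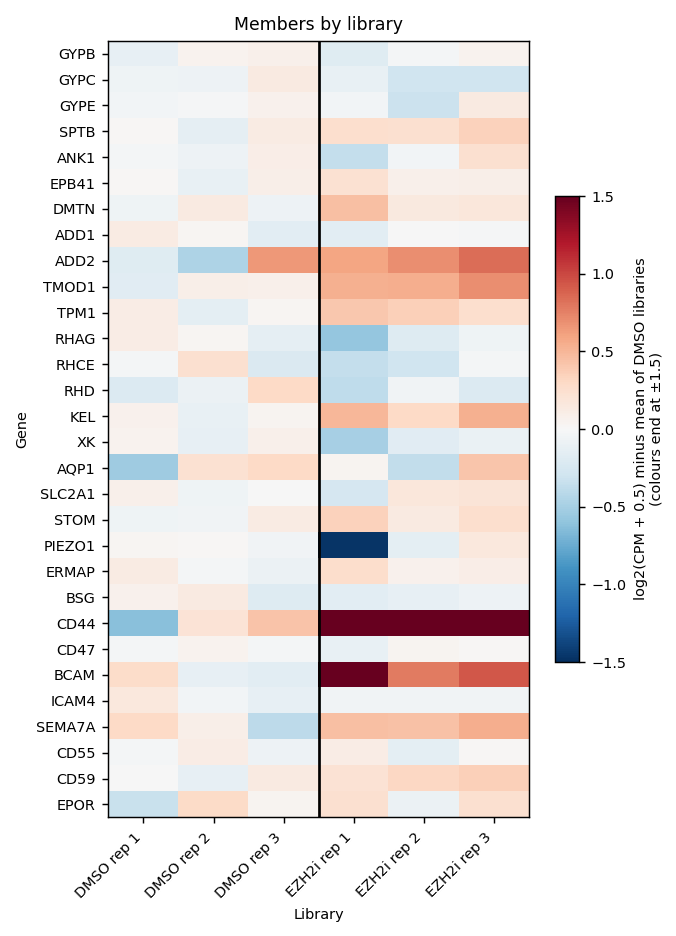
Each tested gene (rows, by role) in each library (columns), as log2(CPM + 0.5) minus the mean of the 3 DMSO libraries, with colours ending at ±1.5. *CD44* and *BCAM* are the darkest red rows in EZH2i, and *PIEZO1* is dark blue in EZH2i replicate 1 alone.

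Other genes with related roles were taken as lists, to be read against all tested genes, of which 3.34% were called higher, 0.922% were called lower and 19.1% had an unadjusted p under 0.05. Of 23 further blood group genes, 13 were tested, 2 rose and 0 were called lower by edgeR or DESeq2, 4 reached an unadjusted p under 0.05, and the median log2 fold change was 0.04. *SMIM1*, the small membrane protein of the Vel blood group, was at 29.9, 28.6 and 36.7 CPM in DMSO and at 49.1, 43.9 and 46.0 CPM in EZH2i, which gave 0.54 on the log2 scale (SE 0.128, adjusted p = 0.0238, edgeR). *SLC44A2*, a choline transporter-like protein, was at 26.8, 29.1 and 26.9 CPM in DMSO and at 44.4, 36.6 and 45.8 CPM in EZH2i, which gave 0.61 on the log2 scale (SE 0.129, adjusted p = 0.0129, edgeR). The groups did not overlap for either gene. The adjusted p of *SMIM1* was 0.109 and 0.125 without DMSO replicates 1 and 2, and that of *SLC44A2* was 0.0673 and 0.0600 without DMSO replicates 1 and 3 (edgeR).

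Paralogs of the skeleton and transporter genes numbered 24, of which 17 were tested and 1 rose, with 0 called lower by edgeR or DESeq2, 5 at an unadjusted p under 0.05 and a median log2 fold change of -0.0028. In edgeR 1 paralog was called lower on unfiltered counts, with the replicate block and without EZH2i replicate 1. *EPB41L1*, a protein 4.1 relative best known from neurons, was at 4.84, 6.63 and 8.15 CPM in DMSO and at 17.3, 13.9 and 12.4 CPM in EZH2i. Its groups did not overlap, and the log2 fold change of 1.13 (SE 0.214, 95% interval 0.68 to 1.58, adjusted p = 0.00575, edgeR) passed the threshold in 6 of 6 fits without 1 library. The difference between *EPB41L1* and *EPB41* was not tested.

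Erythropoietin receptor signaling was represented by 21 genes, of which 20 were tested, 2 rose and 1 fell, 6 reached an unadjusted p under 0.05, and the median log2 fold change was -0.06. The balance of directions was not stable: DESeq2 called 1 higher and 2 lower, edgeR on unfiltered counts 2 higher and 4 lower, and edgeR without EZH2i replicate 1 called 1 higher and 2 lower. *JAK2*, the kinase bound to the receptor, was at 59.4, 53.8 and 56.3 CPM in DMSO and at 39.3, 42.9 and 42.4 CPM in EZH2i, which gave -0.44 on the log2 scale (SE 0.112, adjusted p = 0.0338, edgeR). *PIK3R1*, the regulatory subunit of PI3 kinase, was at 13.4, 17.3 and 21.4 CPM in DMSO and at 33.8, 25.9 and 26.7 CPM in EZH2i, which gave 0.72 on the log2 scale (SE 0.171, adjusted p = 0.0248, edgeR). *VAV1*, a guanine nucleotide exchange factor of blood cells, was at 25.4, 25.6 and 25.2 CPM in DMSO and at 36.0, 37.7 and 34.4 CPM in EZH2i, which gave 0.51 on the log2 scale (SE 0.123, adjusted p = 0.0281, edgeR). The groups did not overlap in any of these 3 genes. The *JAK2* call held in 1 of 6 fits without 1 library, with adjusted p of 0.134, 0.0837 and 0.0919 without DMSO replicates 1, 2 and 3 and 0.0682 and 0.0689 without EZH2i replicates 2 and 3 (edgeR). The *PIK3R1* call was lost without DMSO replicate 1 (adjusted p = 0.121), DMSO replicate 2 (0.104) and EZH2i replicate 1 (0.0542) in edgeR's test. The *VAV1* call was lost without DMSO replicates 1, 2 and 3 and EZH2i replicate 2, at adjusted p of 0.0981, 0.0966, 0.0862 and 0.0873 (edgeR), and with DESeq2, at 0.0552. Of 25 genes of GPI anchor synthesis, on which *CD55*, *CD59* and *SEMA7A* depend for their place in the membrane, 24 were tested and 0 were called by edgeR or DESeq2, with 4 at an unadjusted p under 0.05 and a median log2 fold change of -0.10. In edgeR 2 of them were called lower on unfiltered counts, 1 with the replicate block and 1 without EZH2i replicate 3.

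**Figure D4:**
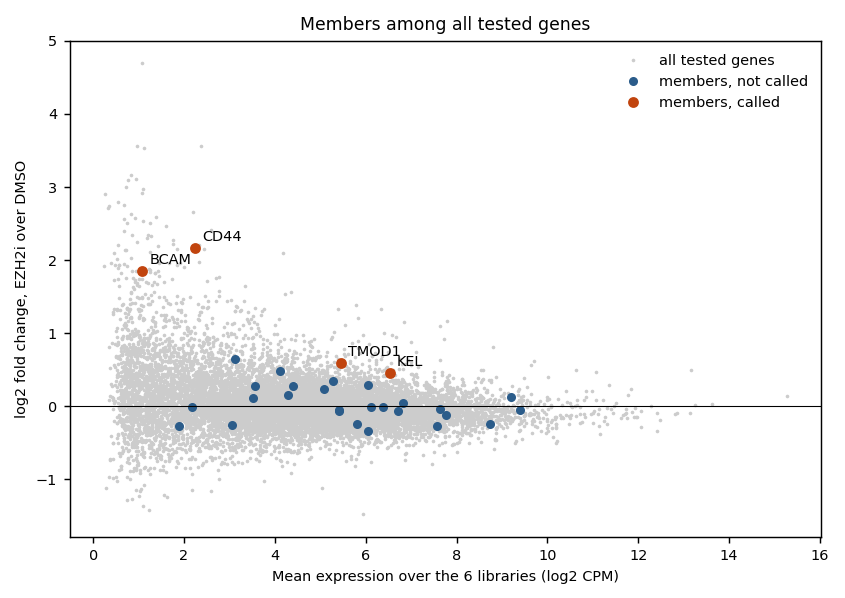
Log2 fold change of EZH2i over DMSO (y axis) against mean expression over the 6 libraries in log2 CPM (x axis) for all 12364 tested genes in grey, with the 30 tested genes of the set in blue or, where called, in red. The red points are the 4 genes that rose, at log2 fold changes of 2.16 (*CD44*), 1.85 (*BCAM*), 0.59 (*TMOD1*) and 0.45 (*KEL*), and the blue points lie within the grey cloud around 0.

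Genes lying at least partly within 500 kb of the 4 that rose were read from the same fit. Near *TMOD1* 0 of 12 tested neighbours were called by edgeR or DESeq2, with 2 at an unadjusted p under 0.05, and near *CD44* 0 of 3, with 0 at that level. Their median log2 fold changes were -0.16 and 0.10. Near *KEL* 2 of 12 rose, with 4 at an unadjusted p under 0.05 and a median of 0.36, and near *BCAM* 1 of 15, with 4 at that level and a median of 0.19. Among all tested genes 3.34% were called higher and 19.1% had an unadjusted p under 0.05. The 3 are named after their values were seen: *EPHB6*, an ephrin receptor near *KEL*, rose from 156 ± 21.9 to 241 ± 11.2 CPM (log2 fold change 0.63, adjusted p = 0.00386, edgeR), *PRSS2*, a trypsinogen near *KEL* with close paralogs, from 137 ± 15.6 to 306 ± 27.9 CPM (1.16, adjusted p = 2.66e-05, edgeR), and *EXOC3L2*, an exocyst-related gene near *BCAM*, from 11 ± 1.70 to 18.1 ± 3.16 CPM (0.71, adjusted p = 0.0359, edgeR). The calls of *EPHB6* and *PRSS2* held in 6 of 6 fits without 1 library. That of *EXOC3L2* held only without EZH2i replicate 2, in 1 of 6, and was not made by DESeq2.

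Markers of other cell types moved beside these results, and their part in the results was not tested. Of 10 lymphocyte markers 3 were tested, and *CD3D* and *TRAC* rose, with log2 fold changes of 0.46 and 1.20. Their list summed to 68.2 to 83.6 CPM in DMSO and 101 to 117 CPM in EZH2i, while *CD8A*, *MS4A1* and *GNLY* had 0 reads. Of 10 granulocyte and monocyte markers 2 were tested and *LYZ* rose (0.62), with a summed level of 12.7 to 18.3 CPM in DMSO and 22.4 to 24.8 CPM in EZH2i and 0 reads on *ELANE* and *CSF1R*. Of 10 epithelial and fibroblast markers 5 were tested, 3 with log2 fold changes above 0 and 2 below, and *COL1A1* rose (1.91), with a summed level of 379 to 402 CPM in DMSO and 392 to 410 CPM in EZH2i and 0 reads on *LUM*. *EPCAM* of this list was at 77.3 ± 5.46 CPM in DMSO and 63.7 ± 2.72 CPM in EZH2i, groups that did not overlap, at -0.28 on the log2 scale (95% interval -0.50 to -0.05, adjusted p = 0.156, edgeR). Of 10 megakaryocyte markers 2 were tested and 0 were called by edgeR or DESeq2, with 1 at an unadjusted p under 0.05, a summed level of 7.92 to 8.11 CPM in DMSO and 7.29 to 15.1 CPM in EZH2i, and 0 reads on *GP9*, *PF4* and *PPBP*. Of the 9 tested erythroid markers, the globins *HBZ* and *HBG2* rose, with log2 fold changes of 1.15 and 0.58. In all 5 of the 9 were above 0 and 4 below, the latter being *HBG1* at -0.39, *TFRC* at -0.14, *LMO2* at -0.08 and *KLF1* at -0.07, none past the threshold, and the list summed to 795 to 902 CPM in DMSO and 930 to 1005 CPM in EZH2i. The calls of *HBZ*, *TRAC* and *COL1A1* held in 6 of 6 fits without 1 library. That of *HBG2* was lost without DMSO replicate 1, 2 or 3, that of *CD3D* without any of these or EZH2i replicate 1, and that of *LYZ* in all 6 and with DESeq2.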

How the data were processed

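RNA-seq was performed on 3 DMSO and 3 EZH2i cultures, separate cultures of 1 K562 clone, with a kit that reads the 3′ end of polyadenylated transcripts. The authors aligned reads to hg38, counted them per Ensembl gene and deposited raw counts per library, without normalization; the submitters' processing notes name STAR 2.6.0c and HTSeq 0.11.2. The strand setting of the counting is not given in the sources used here. Rows naming no gene, among them reads on no feature (7.43% to 12.7% of listed reads), were left out. The authors' own comparison table, which holds fold changes and p-values, was not used.

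The test on these counts was that of edgeR 4.0.16, run under R 4.3.3 (TMM, filterByExpr with a minimum count of 10, glmQLFit, glmQLFTest, two-sided), with Benjamini-Hochberg adjustment over all tested genes at 0.05. The common dispersion was 0.0129. A standard error is the log2 fold change divided by the square root of F. The fits were tested on simulated data. Within groups, replicates differed by more than sampling noise, so each library counts as 1. DESeq2 1.42.0, other scaling and filters, a replicate block and leaving out each library were alternatives. Symbols and positions come from GENCODE version 44 on GRCh38 (60401 identifiers matched), and promoters from RefSeq on GRCh38.p14.

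The members and lists were chosen with earlier results of these data known. Named with full values are the members past the threshold, the smallest p in each role without one, members whose call changes under an alternative, and called genes of the other lists (at most 4 per list and direction); further members with non-overlapping groups, and *PIEZO1*, *XK*, *RHAG* and *CD55*, were added after their values were seen. Intervals and floors (3 reads for a count of 0) cover only what the counts and the fit show.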

Additional observations from a re-analysis of the deposited data

How the results depend on the processing

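The count of 4 called genes was 4 with RLE or upper-quartile factors and with no filter on low counts, and 3 with DESeq2. It was 2 with at least 10 counts in every library, since *CD44* and *BCAM* then drop out. It ran from 1 to 4 over the fits that left out 1 library, with 1 left when DMSO replicate 1 was dropped and 2 when DMSO replicate 2 was. The median log2 fold change of the tested set ran from -0.021 to 0.11 over those fits. The fits without 1 library called 0 to 2 of the other blood group genes, 1 to 2 of the paralogs, 0 to 3 of erythropoietin receptor signaling and 0 to 1 of GPI anchor synthesis. With no filter on low counts the last 3 lists gave 2, 6 and 2. DESeq2 called 290 genes higher and 138 lower in all, against 413 and 114, and no filter called 928 in place of 527; the fits without DMSO replicate 1, 2 or 3 called 213, 209 and 240. The cause of these shifts was not tested.

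With the replicate number as a block, 4 members, 2 blood group genes, 2 paralogs, 3 signaling genes and 1 GPI gene were called, and 599 genes in all. Same-numbered libraries did not deviate together (correlations of -0.051, -0.018 and -0.017), and no library correlated best with its own number. These values show no sign of pairing by number, and so few libraries cannot exclude it.

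Signs turned only where no call stood. With upper-quartile factors the log2 fold change was 0.0018 for *AQP1*, 0.00033 for *CD47* and 0.014 for *CD55*, and with the block 0.0066 for *AQP1*. Without 1 library it ran from -0.11 to 0.017 for *GYPB*, -0.18 to 0.045 for *GYPE*, -0.19 to 0.10 for *ANK1*, -0.14 to 0.0015 for *ADD1*, -0.25 to 0.19 for *AQP1*, -0.026 to 0.19 for *SLC2A1*, -0.66 to 0.018 for *PIEZO1*, -0.049 to 0.033 for *CD47*, -0.11 to 0.027 for *ICAM4*, -0.060 to 0.065 for *CD55* and -0.035 to 0.27 for *EPOR*.

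The *BCAM* result rests on 6 or 7 reads per DMSO library, and *EPB42*, *SLC4A1*, *SLC14A1* and *ACKR1* had too few reads to be tested. Whether low expression or sequencing depth limits these genes was not tested.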
